A study of Gallus gallus with 6 samples.

Results

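The 9 genes described here are markers of head and lateral mesoderm: the homeobox genes PRRX1, MEOX1 and ALX1, the basic helix-loop-helix factors TCF21 and MESP1, the growth factor receptor PDGFRA, the matrix genes LUM and POSTN, and the enzyme gene CYP1B1. The 9 genes were chosen with earlier results of these data known. Their probe sets were taken by gene name alone, as those that carry a single symbol equal to 1 of the 9 names. All 9 genes had a probe set, 13 probe sets in all, of 13008 named genes and 37690 probe sets on the chicken array. Sensory placode progenitors are induced by mesoderm of the head, and the 3 induced samples were area opaca epiblast of chick hosts at stage HH4- that had been in contact for 12 hours with lateral head mesoderm grafted from stage HH6 donors. The 3 control samples were area opaca from the opposite side, without a graft. The graft was peeled off and the tissue was cut out by hand with fine pins, and the sources used here give neither the strain nor how many embryos a sample holds. The graft was itself mesoderm, so the comparison asks how far markers of such tissue differed between the dissected samples; RNA of remaining graft cells and RNA of the epiblast cannot be told apart.

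Head mesoderm is a loose mesenchyme beneath the ectoderm of the head, from which face and eye muscles, parts of the skull, blood vessels and, at its lateral edge, cells of the heart form. Lateral plate mesoderm lies further out and continues into the mesoderm of the extraembryonic membranes. MESP1 is switched on early, in mesoderm leaving the primitive streak, whereas PRRX1, ALX1 and TCF21 are used in later mesenchyme, and PRRX1, ALX1 and PDGFRA are also used by mesenchyme of the neural crest. Lumican and periostin, the products of LUM and POSTN, are secreted into the matrix around mesenchymal cells.

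Signals are MAS5 values on a linear scale, 1 per probe set and array. Array medians were 18.35, 8.3 and 7.5 units in induced samples 1 to 3 and 17.7, 7.7 and 9.6 in control samples 1 to 3, so that signals of different arrays are not on a common level. Levels and differences below are therefore log2(signal + 16) after quantile normalization, a scale on which a signal of 0 lies at about 4, and which understates changes of weak genes. Probe sets with a mean under 4.5 over the 6 arrays were left out of the test. CDH1 and EPCAM, which encode epithelial adhesion proteins, were measured on every array and had group means of 10.85 and 11.50 in induced tissue and 10.84 and 11.44 in control tissue. They are named after their values were seen, and are among the 10 tested genes of a list of ectoderm and epiblast markers. Relative to the control mean, that list averaged 0.38, 0.35 and 0.32 in induced samples 1 to 3. Its averages in control samples 1 to 3 were -0.08, 0.13 and -0.05. Genes of the list were uneven, with 8 above and 2 below the controls and a median log2 fold change of 0.24. OTX2 had the largest difference, 2.08, and GATA3 had 0.89, whereas KRT7 and GRHL3 had -0.32 and -0.68. Among markers of other tissues, 3 of 15 tested genes of blood and endothelium fell and 0 of 11 genes of yolk sac endoderm passed. Of all genes tested, 0.376% passed. In bulk tissue, fewer cells of a type and less RNA per cell cannot be told apart.

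None of the mesoderm markers tested passed an adjusted p of 0.05 between induced and control tissue. Of the 9 genes, 5 passed the filter on low signal and were tested, and 0 of these 5 were called, where 38 of 10118 genes (0.376%) were called in all (limma, Benjamini-Hochberg over all genes). That background count moved with single arrays and was 1 without induced sample 2, 5 without induced sample 1, 12 without control sample 3 and 121 without induced sample 3. LUM and MESP1 had an unadjusted p under 0.05, 2 of 5, against 11.6% of all genes tested. The same 2 genes were those whose induced and control values did not overlap after normalization, against 16.6% of all genes. In units before normalization both overlapped, since control sample 1 was above induced sample 3 in each. MESP1 had a control mean of 4.39, under the filter of 4.5, and passed the filter only through its induced mean of 4.77. Its place in both counts is therefore no support. Over all 9 genes the median log2 fold change was 0.05, with 5 genes above and 4 below 0, beside a median of 0.01 over all named genes. The members differed from one another in direction and in which arrays were high.

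**Figure D1:**
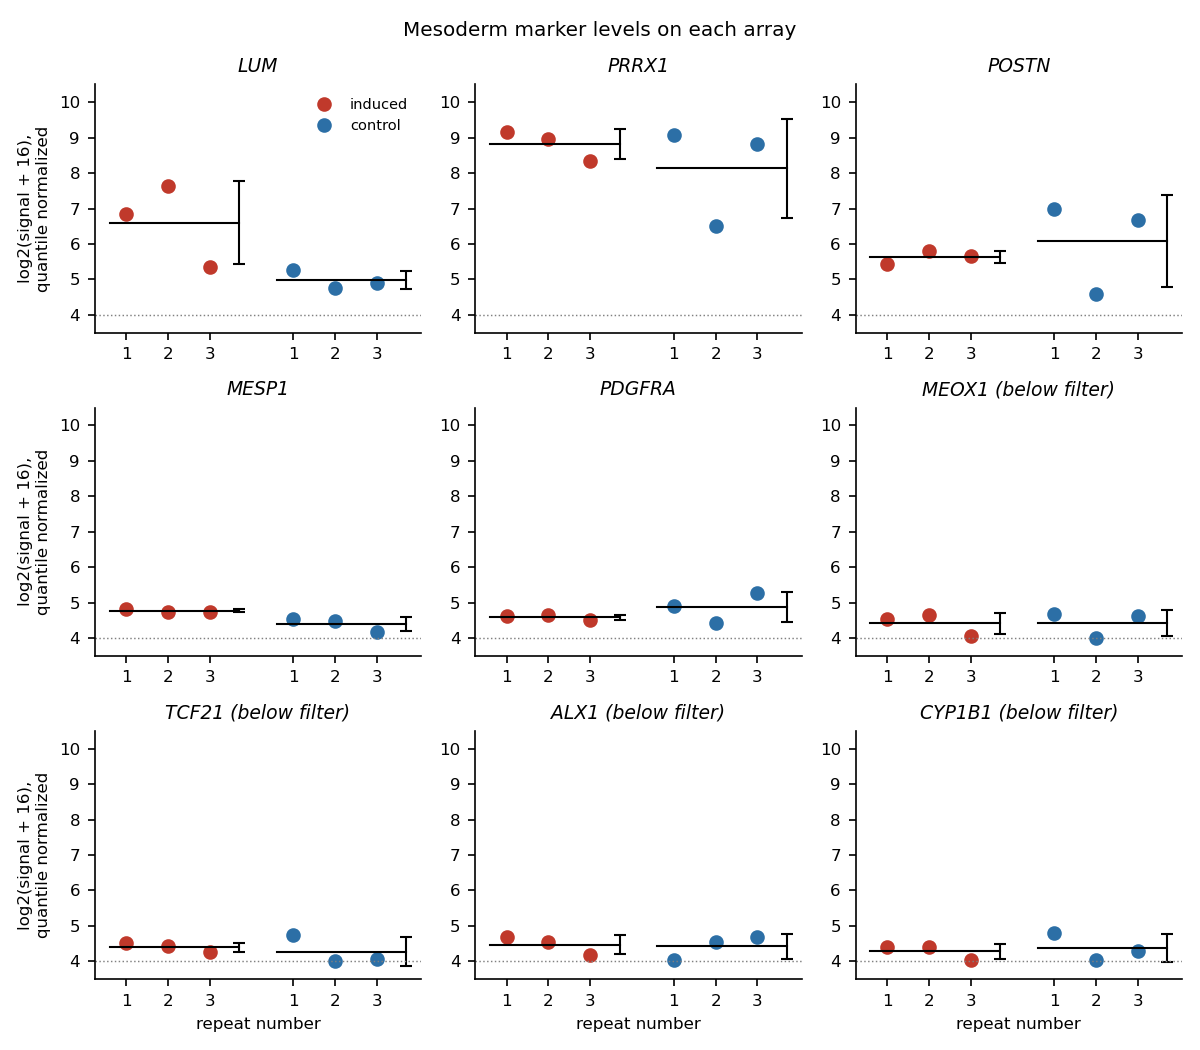
Level of each of the 9 markers on each array, as log2(signal + 16) after quantile normalization (y axis), for induced samples 1 to 3 (red, left) and control samples 1 to 3 (blue, right); horizontal lines are group means, bars 1 SD (n = 3) and the dotted line a signal of 0 before normalization. LUM was high in induced samples 1 and 2, PRRX1 and POSTN were low in control sample 2, and MEOX1, TCF21, ALX1 and CYP1B1 lay near the dotted line on every array.

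LUM (Entrez gene 417891), which encodes the small leucine-rich proteoglycan lumican, had the largest difference of the 9 genes. Its only probe set read 172.9, 155.1 and 15.6 units in induced samples 1 to 3, against 37, 7.8 and 12.1 units in control samples 1 to 3. After normalization these were 6.85, 7.63 and 5.34 in induced tissue and 5.28, 4.77 and 4.90 in control tissue. Induced samples 1 and 2 thus stood well above every control, and induced sample 3 lay just above control sample 1. The means were 6.61 ± 1.17 in induced and 4.99 ± 0.26 in control tissue (SD, n = 3 each), so that LUM differed by 1.62 on the log2 scale (SE 0.469, 95% interval 0.58 to 2.66, limma adjusted p = 0.204). Of the genes tested, 22 had a higher fold change. The call turned on induced sample 3: without it the log2 fold change was 2.32 and the adjusted p 0.00902, in a fit where 1.19% of genes were called. Without induced sample 2 the log2 fold change was 1.11 (adjusted p = 0.672).

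The genes whose 6 values lay nearest to those of LUM were EBF3, a helix-loop-helix transcription factor, and CYP26C1, an enzyme of retinoic acid breakdown that is expressed in chick head mesoderm. Nearness is the root mean square difference after each gene's control mean was taken off, and it was 0.195 for EBF3 and 0.242 for CYP26C1, with 3 genes within 0.3. CYP26C1 had 5.82, 6.98 and 4.54 in induced samples 1 to 3, against 4.72, 4.36 and 4.25 in control samples 1 to 3. This was a difference of 1.33 (SE 0.48, limma adjusted p = 0.321). CYP26C1 had a control mean of 4.45, under the filter of 4.5, and was tested only through its induced mean of 5.78. For EBF3 the difference was 1.58 (adjusted p = 0.221). In both, as in LUM, induced samples 1 and 2 were high and induced sample 3 was close to the controls. This likeness follows from choosing them by nearness. The other small leucine-rich proteoglycan genes of the matrix list, DCN, OGN, BGN, FMOD, KERA and PRELP, were all below the filter. DCN, which encodes decorin and is named after its values were seen, read 14.9, 11.4 and 3.3 units in induced samples 1 to 3, against 0.4, 0.8 and 0.2 units in control samples 1 to 3, so that its groups did not overlap at very low signal. The other 5 overlapped, with differences of 0.02 for OGN, 0.13 for BGN, -0.26 for FMOD, 0.02 for KERA and 0.24 for PRELP.

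POSTN (Entrez gene 395429), which encodes the matrix protein periostin, differed mainly among the controls. Its stronger probe set read 45.6, 32.2 and 22.1 units in induced samples 1 to 3, against 190.7, 5.6 and 74.8 units in control samples 1 to 3. On the log2 scale this gave 5.45, 5.79 and 5.66 in induced tissue and 7.0, 4.59 and 6.67 in control tissue. All induced values lay between control sample 2 and the other two controls. The means were 5.63 ± 0.17 in induced and 6.09 ± 1.31 in control tissue (SD, n = 3 each), a difference of -0.45 (SE 0.51, 95% interval -1.59 to 0.68, limma adjusted p = 0.819). Without control sample 2 the difference was -1.22 (adjusted p = 0.083). Without control sample 1 it was -0.01, and without both arrays of repeat 1 it was 0.06. The other POSTN probe set, of a kind shared by related transcripts, was below the filter with at most 16.9 units and gave 0.03. The nearest genes to POSTN were EDNRB, an endothelin receptor gene (0.173), and MASP1, a protease gene of the complement system (0.23). In these, control sample 2 was at -1.25 and -1.27 relative to the control mean, a likeness that follows from this choice.

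Of the transcription factor genes, PRRX1 (Entrez gene 373941), a paired-type homeobox gene of limb and face mesenchyme, had signal on arrays of both groups. The strongest of its 3 probe sets read 952.5, 408.7 and 187.9 units in induced samples 1 to 3, against 897.7, 52.9 and 372.8 units in control samples 1 to 3. The normalized values were 9.15, 8.97 and 8.33 in induced and 9.07, 6.52 and 8.81 in control tissue. Control sample 2 was far below the other 5 arrays, and induced sample 3 lay below control samples 1 and 3. The means were 8.82 ± 0.43 in induced and 8.13 ± 1.40 in control tissue (SD, n = 3 each), which left a difference of 0.69 (SE 0.553, 95% interval -0.55 to 1.92, limma adjusted p = 0.717). This direction rested on control sample 2, since without it the log2 fold change was -0.12 (adjusted p = 0.949).

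The 2 further PRRX1 probe sets gave the same picture, with log2 fold changes of 0.45 (SE 0.336) and 0.56 (SE 0.475). In each of the 3 probe sets control sample 2 was the lowest array and induced sample 3 the next lowest. The 3 probe sets measure transcripts of 1 gene and are not independent. Genes nearest to PRRX1 were NES, which encodes the intermediate filament protein nestin (0.227), and PLXNA2, a semaphorin receptor gene (0.27). In both, control sample 2 was the lowest array, at -1.40 and -1.24 relative to the control mean. This follows from choosing them by nearness to PRRX1.

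MESP1 (Entrez gene 395252), a regulator of the first mesoderm and of heart precursors, had low signal in both groups. RefSeq lists MESP2 as another name of the same chick gene, so that the array does not separate these names. The stronger of its probe sets read 20.3, 8.2 and 7.2 units in induced samples 1 to 3, against 11.1, 4.5 and 1.7 units in control samples 1 to 3. The normalized values were 4.82, 4.75 and 4.74 in induced and 4.53, 4.49 and 4.16 in control tissue, which did not overlap. This was a difference of 0.38 (SE 0.158, 95% interval 0.03 to 0.73, limma adjusted p = 0.389). Because MESP1 passed the filter only through its induced mean of 4.77, neither this interval nor the lack of overlap is support for a change. The other MESP1 probe set, below the filter, also gave 0.38, with overlapping groups. At this level the profile was common, since 3450 genes lay within 0.3 of it, SRC and DPCD nearest.

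MEOX1 (Entrez gene 395533), a homeobox gene of the somites, TCF21 (Entrez gene 421697), a factor of muscle-forming head mesoderm and of the epicardium, and ALX1 (Entrez gene 427871), a homeobox gene of eye and face mesenchyme, were below the filter. MEOX1 read 11.7, 6.7 and 0.5 units in induced samples 1 to 3, against 14.9, 0.1 and 7.4 units in control samples 1 to 3. TCF21 read 11, 4 and 2 units in induced samples and 17.4, 0.1 and 0.5 units in control samples. ALX1 read 15.8, 5.4 and 1.3 units in induced samples and 0.5, 5 and 8.4 units in control samples. Values of the 2 groups overlapped in all 3 genes, and no array exceeded 17.4 units. In a limma fit with no filter the log2 fold change was -0.02 for MEOX1 (95% interval -0.49 to 0.45), 0.12 for TCF21 (-0.31 to 0.54) and 0.05 for ALX1 (-0.39 to 0.50), with adjusted p of 0.989, 0.904 and 0.968. For signals this weak such intervals are narrowed by the added 16 and do not bound the change in RNA.

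PDGFRA (Entrez gene 395509), the receptor for PDGF-A and PDGF-C that marks migrating mesoderm and mesenchyme, was low as well. It read 14.4, 6.5 and 4.7 units in induced samples 1 to 3, against 22.4, 3.7 and 20.1 units in control samples 1 to 3. After normalization the values were 4.63, 4.64 and 4.51 in induced and 4.91, 4.43 and 5.27 in control tissue, with control sample 2 the lowest of all. The difference was -0.28 (SE 0.212, 95% interval -0.75 to 0.20, limma adjusted p = 0.697). It was -0.52 without control sample 2 (adjusted p = 0.449) and -0.07 without control sample 3 (adjusted p = 0.957). Genes nearest to it were KDELC2 and ASB12, among 1518 within 0.3. CYP1B1 (Entrez gene 421466), which encodes a cytochrome P450 that can make retinoic acid in the embryo, read 8.6, 3.7 and 0.3 units in induced samples 1 to 3, against 18.8, 0.2 and 3.1 units in control samples 1 to 3. Its groups overlapped, and with no filter its log2 fold change was -0.09 (95% interval -0.52 to 0.34, limma adjusted p = 0.938).

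**Figure D2:**
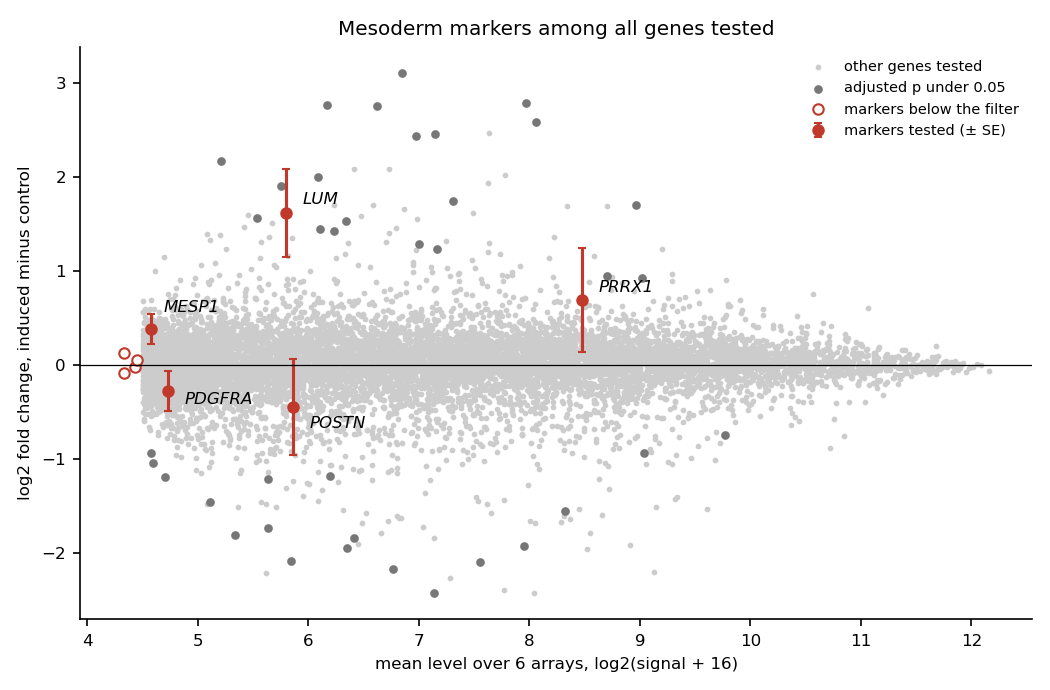
Log2 fold change, induced minus control (y axis), against the mean log2(signal + 16) over 6 arrays (x axis) for the 10118 genes tested; dark grey points had an adjusted p under 0.05, red points are the 5 markers tested with their SE, and open circles are the 4 markers below the filter. LUM lay at 1.62 with a SE of 0.469, and the other markers lay between -0.45 and 0.69.

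Further genes of the same tissues were read from lists chosen with earlier results of these data known. Of 16 head mesoderm factors, 13 had a probe set, 7 were tested and 0 passed, with 4 above and 3 below the controls and a median log2 fold change of 0.05. FOXC2, a forkhead factor of head and somite mesoderm, had 9.76, 9.68 and 8.12 in induced samples 1 to 3, against 8.11, 5.16 and 9.23 in control samples 1 to 3. Control sample 2 was again the lowest array, and FOXC2 differed by 1.69 (SE 0.85, limma adjusted p = 0.493). TBX2 and FOXC1, both mesenchymal transcription factor genes, had 0.18 and -0.13. FOXC1 had an induced mean of 4.49, just under the filter of 4.5, and was tested only through its control mean of 4.63. Of 13 lateral plate and splanchnic factors 4 were tested and 0 passed. GATA4, a heart and endoderm factor, had -0.67 (SE 0.172, adjusted p = 0.153), HAND1 -0.27, HAND2 -0.10 and BMP4 0.21. GATA4 had an induced mean of 4.48, under the filter of 4.5, and was tested only through its control mean of 5.15. Its difference is therefore no support. Of the paraxial mesoderm genes MEOX2, TCF15 and DLL1 were tested, with log2 fold changes of -0.17, 0.02 and 0.03, and 0 passed. MEOX2 was weak, with at most 12.3 units on any array. TBX1, MYF5, ALX4, TBX6, MSGN1, TBX18 and FOXF1, named after their values were seen, were below the filter with at most 10.7 units on any array. Values of the groups overlapped in each of these. OSR2 of the lateral list, also below the filter and named after its values were seen, had a difference of 0.30 without overlap, at no more than 10.4 units.

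Genes of the primitive streak and nascent mesoderm did not pass either, 0 of 5 tested. WNT5A, a secreted signal of the streak and later mesenchyme, had 6.99, 6.81 and 7.34 in induced samples 1 to 3, against 7.75, 7.98 and 8.04 in control samples 1 to 3. Its groups did not overlap, with a difference of -0.88 (SE 0.199, limma adjusted p = 0.108). SNAI2, a regulator of cells leaving an epithelium, had -0.91 (adjusted p = 0.335), WNT3A -0.90 (adjusted p = 0.432) and WNT8A 0.35 (adjusted p = 0.559). The streak gene TBXT had 0.32 (adjusted p = 0.844), so that 2 were above and 3 below the controls. EOMES, MIXL1, FGF8, NODAL and LHX1 were below the filter. EOMES had a difference of 0.34 without overlap of its groups, at no more than 9.6 units on any array.

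Of 21 matrix genes of mesenchyme 13 were tested and 0 passed, with 4 above and 9 below the controls and a median of -0.06. HAS2, which makes hyaluronan, and VCAN, which encodes the proteoglycan versican, had log2 fold changes of 1.04 (SE 0.278) and 0.94 (SE 0.285), with limma adjusted p of 0.165 and 0.226. TGFBI and SPARC, both secreted matrix proteins, had -1.32 (SE 0.348, adjusted p = 0.165) and -0.20 (SE 0.0862, adjusted p = 0.399). Control sample 2, the lowest array in PRRX1, was also the lowest in 8 of the 13 matrix genes, while 3 were lowest in induced sample 2, 1 in induced sample 3 and 1 in control sample 1. The share of all genes tested that were lowest in control sample 2 was not counted, so the 8 cannot be read as a trait of matrix genes. The fibrillar collagen gene COL1A1 and the mesenchymal cadherin gene CDH11, among the 8, are named after their values were seen. Their control SDs of 1.67 and 1.5 were the largest of the 13. TGFBI had its highest array in control sample 2, at 9.60. COL1A1 had 8.34, 7.36 and 6.25 in induced samples 1 to 3, against 8.56, 5.26 and 7.31 in control samples 1 to 3. CDH11 had 7.91, 7.80 and 7.40 in induced tissue, against 8.64, 6.07 and 8.68 in control tissue.

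The PDGF ligand genes and the other receptor and receptor-like genes of the list were all tested, and 0 of 6 passed. PDGFD, a ligand of the beta receptor, had 6.80, 6.52 and 6.52 in induced samples 1 to 3, against 7.50, 8.09 and 7.60 in control samples 1 to 3, a difference of -1.11 (SE 0.213, limma adjusted p = 0.0653). The ligand genes PDGFB and PDGFA had -0.70 and -0.52, and the receptor gene PDGFRB 0.42, with adjusted p of 0.416, 0.606 and 0.783. In the aryl hydrocarbon receptor pathway, which controls CYP1 genes, 0 of 4 tested genes passed. ARNT2, a partner of the receptor, had 0.59 (SE 0.107, adjusted p = 0.0526), CYP1A2 -0.66, ARNT 0.36 and the receptor gene AHR1A -0.37.

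**Figure D3:**
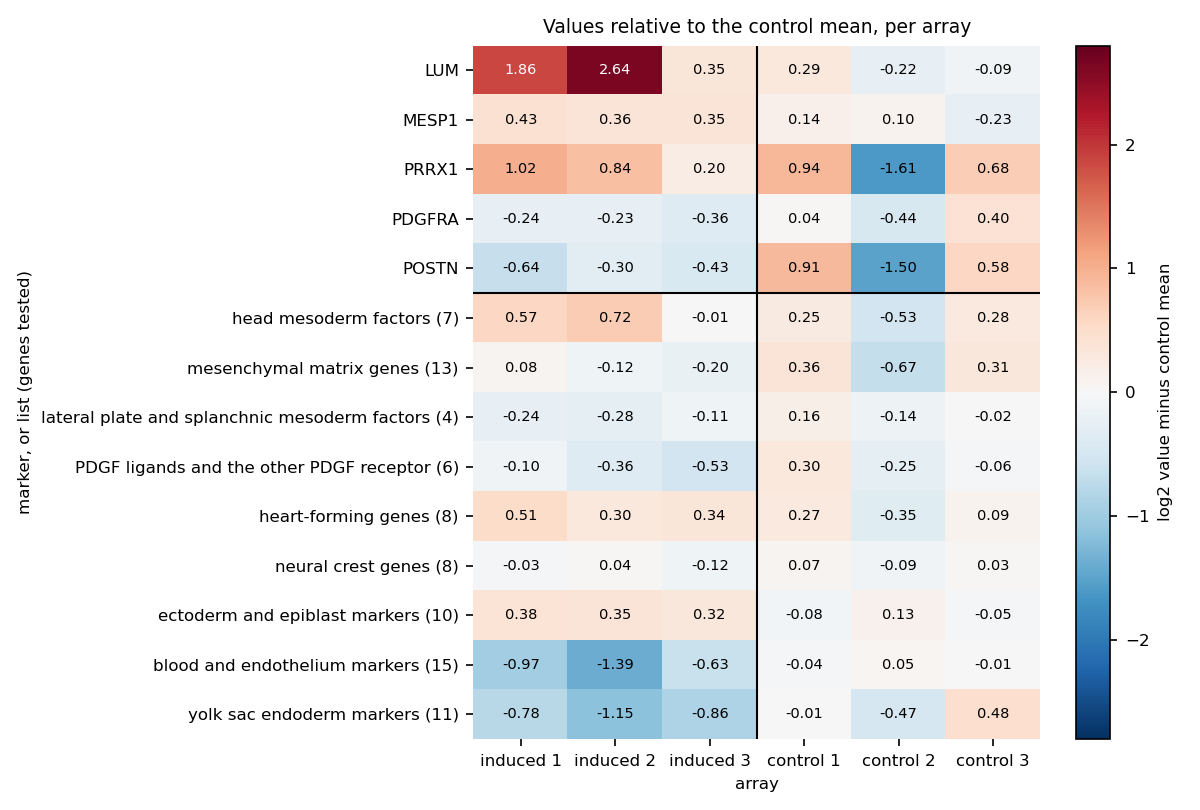
Values on each array relative to the control mean (log2, colour and printed numbers) for the 5 markers tested (upper rows) and as averages over the tested genes of 9 lists (lower rows, with the number of genes), for induced samples 1 to 3 (left) and control samples 1 to 3 (right). Control sample 2 was at -1.61 in PRRX1, -1.50 in POSTN and -0.67 in the matrix list, and the head mesoderm list was at 0.57, 0.72 and -0.01 in induced samples 1 to 3, against 0.25, -0.53 and 0.28 in control samples 1 to 3. The head mesoderm averages rest mainly on FOXC2 and CYP26C1, with log2 fold changes of 1.69 and 1.33. The other genes tested of that list had between -0.13 and 0.18.

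Markers of other tissues were set beside the mesoderm markers array by array. Averaged over the 15 tested genes of blood and endothelium, induced samples 1 to 3 were at -0.97, -1.39 and -0.63 relative to the control mean, against -0.04, 0.05 and -0.01 in control samples 1 to 3. Their summed signals, before arrays were brought to a common level, ran from 607.9 to 2321 units in induced and from 2807 to 5679 units in control samples, and none of the 15 was under 16 units on every array. Of these genes 13 were below and 2 above the controls, RUNX1 at 0.35 and ESAM at 0.36, while SOX18 and LYVE1 had -0.25 and -0.17. ESAM had a control mean of 4.43, under the filter of 4.5, and was tested only through its induced mean of 4.78, so its direction is no support. TAL1, LMO2 and KDR, which mark precursors of blood and vessels, fell, with differences of -1.74, -2.18 and -1.84 (limma adjusted p = 0.0112, 0.0162 and 0.0112). HBZ, an embryonic globin gene, had -1.52 (adjusted p = 0.0722). Averaged over the kept probe sets of each gene the differences were smaller, at -0.95 for TAL1 (adjusted p = 0.0511, not passed), -1.46 for LMO2 (0.044) and -1.05 for KDR (0.0366). Without induced sample 2 the 3 genes that fell had differences of -1.58, -1.86 and -1.71 and did not pass (adjusted p = 0.0694 each); LMO2 and KDR were also lost without induced sample 1 (adjusted p = 0.0569 and 0.056) or control sample 3 (0.0767 and 0.0539), and LMO2 without control sample 2 (0.0525). The 11 tested genes of yolk sac endoderm averaged -0.78, -1.15 and -0.86 in induced samples, against -0.01, -0.47 and 0.48 in control samples, with summed signals of 1872 to 4729 units in induced and 2959 to 7895 units in control samples. TTR and APOA1, which encode secreted transport proteins, had -1.53 and -1.60, and the transcription factor genes HHEX and HNF4A -1.43 and -1.04, with adjusted p of 0.0519 to 0.17. Of the 11 genes, 10 were below and 1 above the controls, and TF, FOXA2 and SOX17 had 0.01, -0.02 and -0.08. The low control sample 2 of PRRX1 and POSTN was thus not low in the blood and endothelium list, at 0.05, and was at -0.47 in the yolk sac endoderm list. The part of these tissues in the marker values was not tested.

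Of the heart-forming genes, whose cells arise beside lateral head mesoderm, 2 of 8 tested passed, against 0.376% of all genes tested. This list too was chosen with earlier results known. In it 4 genes were above and 4 below the controls, with a median log2 fold change of 0.04. ISL1, a homeobox gene of heart precursors and placodes, rose by 2.79 and NKX2-5, a cardiac homeobox gene, by 1.90 (limma adjusted p = 0.00794 and 0.0115), whereas the sarcomere genes TNNT2 and ACTC1 had -0.70 and -0.75 (adjusted p = 0.429 and 0.293). Without induced sample 2 the adjusted p was 0.0694 for ISL1, at 2.72, and 0.0757 for NKX2-5, at 1.91, and without induced sample 1 it was 0.056 for NKX2-5, at 1.67. Among neural crest genes 0 of 8 tested passed, with MSX1 at -0.97, TFAP2B at 0.86, SNAI2 at -0.91 and SOX10 at 0.38. In the ectoderm and epiblast list 0 of 10 passed, with 8 above and 2 below the controls. OTX2, a factor of the anterior embryo, had 7.86, 8.72 and 6.73 in induced samples 1 to 3, against 5.78, 5.39 and 5.89 in control samples 1 to 3, a difference of 2.08 (adjusted p = 0.0768). As in LUM, induced sample 2 was highest and induced sample 3 lowest of the induced arrays. GATA3 and SOX3 were instead highest in induced sample 1, and how many genes share the order of LUM was not counted. GATA3, KRT7 and SOX3 had 0.89, -0.32 and 0.49.

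**Figure D4:**
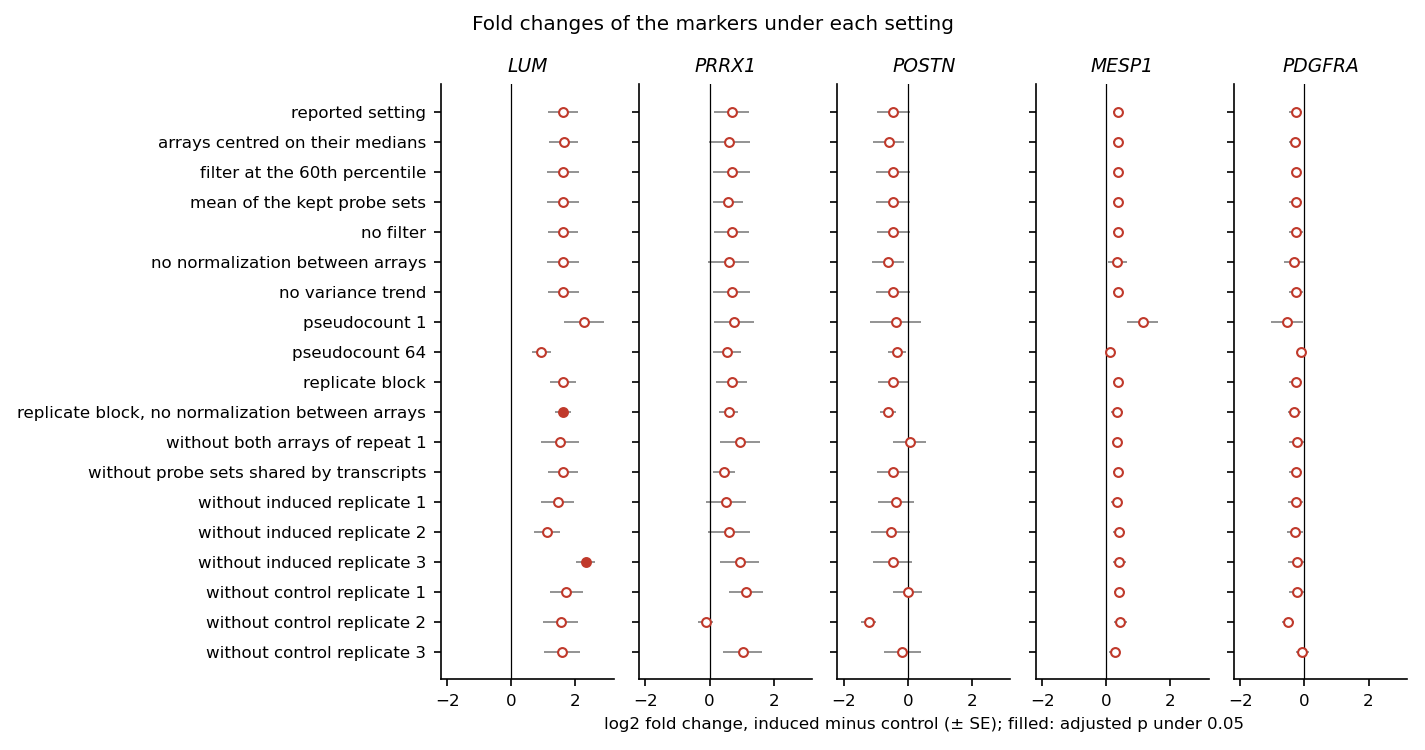
Log2 fold change, induced minus control, with its SE (x axis), of the 5 markers tested under the reported setting and 18 others (y axis); filled points had an adjusted p under 0.05. LUM was above 0 throughout and filled in 2 settings, whereas PRRX1 and POSTN shifted most where control sample 2 was left out.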

How the data were processed

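RNA of 3 induced and 3 control samples was hybridized to 1 Affymetrix array each, per the labels' protocols. The deposited values are 1 intensity per probe set and array, which the authors made with MAS5, per the submitters' processing notes; no version or scaling target is stated in the sources used here, and detection calls were not used here. The table has 6 sample columns and 0 others. After 16 was added, intensities were put on the log2 scale and quantile normalized between arrays. Probe sets below the 40th percentile of the mean over 6 arrays were dropped, leaving 22614 of 37690. The test was limma's (version 3.58.1, R 4.3.3; lmFit, eBayes with trend, group as the only term, two-sided). P-values were adjusted by Benjamini-Hochberg over the 10118 genes tested, each read from the probe set with its highest mean. The fit was tested on simulated data. An exact permutation test of 3 against 3 arrays cannot go below 0.1. The repeats are numbered as biological, but separate embryos are not stated, so the p-values cover the spread between these samples, which may be technical.

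Gene names came from the platform annotation of GEO: 27166 probe sets had 1 symbol, 177 several (not named) and 10347 none. Entrez numbers gave 26851 of the symbols their current form in RefSeq's table of GRCg7b genes. Coordinates are left out because the sources used here name no build for the array. The 9 markers, the lists and the settings were chosen with earlier results of these data known. Named were all 9 markers, up to 4 genes of each list with the lowest p, and the 2 genes nearest to each marker tested. Further genes of the lists are named after their values were seen.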

Additional observations from a re-analysis of the deposited data

How the results depend on the processing

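The markers and counts were recomputed under 18 other settings of pseudocount, filter, normalization, variance model, repeat number, probe sets and arrays (17 for MEOX1, TCF21, ALX1 and CYP1B1, which have no kept probe set to average). LUM, MESP1 and PDGFRA kept their direction in all 18, at 0.943 to 2.323, 0.127 to 1.136 and -0.543 to -0.073. For MESP1 this is no support, since it was tested only through its induced mean and the settings reuse the same weak signals. PRRX1 was -0.119 without control sample 2, and between -0.119 and 1.141 without single arrays. POSTN was 0.061 without both arrays of repeat 1. The number of markers called, 0, became 1 (LUM) without induced sample 3, the other single arrays giving 0, and 1 (LUM, adjusted p = 6.36e-08) with the repeat number as a replicate block on values not normalized between arrays. With the replicate block on normalized values LUM had an adjusted p of 0.145. Equal numbers were not taken as pairs in the reported fit. Deviations from the group means correlated at 0.553, -0.146 and 0.069 for repeats 1 to 3 after normalization. Without normalization they correlated at 0.69, -0.031 and 0.233. In both cases, induced samples 2 and 3 correlated better with other numbers. With 3 arrays per group the deviations constrain one another, so these correlations cannot settle whether arrays are paired. The markers' median of 0.05 was 0.410 with a pseudocount of 1, 0.377 with the mean of kept probe sets, which leaves out the 4 weak genes, and -0.119 to 0.203 without single arrays. The 38 genes called in all were 9 without normalization, 21 without a variance trend, 4 without repeat 1, 359 with the block on values not normalized, 48 with the block on normalized values, and 1 to 121 without single arrays. NKX2-5, TAL1, LMO2 and KDR did not pass without normalization between arrays or without repeat 1 (adjusted p = 0.0592 to 0.162). The cause was not tested. Low signal limits MEOX1, TCF21, ALX1, CYP1B1, MESP1 and PDGFRA, none above 25.3 units on any array.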
